A study of Bos taurus with 48 samples.

Results

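The genes of fatty acid synthesis and elongation FASN (ENSBTAG00000015980), ACACA (ENSBTAG00000017567) and ELOVL6 (ENSBTAG00000010564) were followed in subcutaneous adipose tissue of heifers across diets and sampling times. They were chosen by their Ensembl gene identifiers, are 3 of the 24616 genes in the count tables, and all 3 passed the filter on low counts in every model. RNA came from 48 biopsies of 24 Norwegian Red heifers, with 1 biopsy per heifer at the age of 12 months and 1 in gestation, in month 7. The diets began at an age of 3 months and ended once a heifer was known to be pregnant, and held low protein with high energy (LPHE), low protein with low energy (LPLE), high protein with high energy (HPHE) or high protein with low energy (HPLE), 6 heifers per diet. Energy was set by how much silage a heifer could eat, unlimited in HE and rationed and diluted with straw in LE, and protein by the concentrate and the roughage. HE heifers also ate more crude protein than LE heifers at either protein level, and the LP concentrate held more starch than the HP concentrate. The difference between HE and LE, called the energy effect below, therefore cannot be told apart from protein intake, nor that between HP and LP from starch. Each diet held 3 heifers of a high milk-yield (HMY) and 3 of a low clinical mastitis (LCM) genetic group. After the diets ended, all heifers were kept together on a low-energy feed with free access, so in gestation the diet names stand for the rearing diet and no heifer was on it any longer. At 12 months HE heifers were heavier, had higher body condition scores and had entered puberty at a younger age than LE heifers. These traits and the energy of the diet cannot be told apart. HE heifers became pregnant at a younger age than LE heifers, so in month 7 of gestation age and rearing energy cannot be told apart, and between sampling times age, pregnancy and feed cannot be told apart either.

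Acetyl-CoA carboxylase alpha, encoded by ACACA, makes malonyl-CoA from acetyl-CoA and is the committed step of fatty acid synthesis. Fatty acid synthase, encoded by FASN, joins malonyl-CoA units to palmitate with NADPH as reductant, and ELOVL6 starts the elongation of palmitate to stearate. In ruminants the adipose tissue is the main site of fatty acid synthesis outside lactation, acetate from the rumen is the main carbon source, and insulin and energy supply are known to act on these genes through transcription.

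Between 14815595 and 59809633 reads per heifer (median 32166717) were counted on genes at 12 months and between 22430093 and 61027456 (median 43293433) in gestation. The lowest count of a member in any sample was 5093, for ELOVL6, so the spread between heifers and not counting error limited the precision. FASN took 0.0719 to 1.67% of all reads on genes, ACACA 0.0206 to 0.330% and ELOVL6 0.00974 to 0.297%. Levels are given as CPM, read counts relative to a library size that was scaled with the trimmed mean of M values (TMM) over all 48 samples, and since transcript length was not used they are compared between samples of 1 gene and not between genes. CIDEC, a lipid droplet protein of fat cells and the 1 adipocyte marker of 6 with a known identifier, was read in every library at 810 to 2798 CPM. The sum of the skeletal muscle genes ACTA1, CKM and MYH7 was above 10 CPM in 9 libraries, 6 of 12 months and 3 of gestation, and the calls below that changed without these libraries are named. In bulk tissue, fewer cells of a type and less RNA per cell cannot be told apart.

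At 12 months all 3 genes were higher in LPHE than in LPLE heifers. The normalized read count of FASN was 11568 ± 1233 CPM (SD, n = 6) in LPHE heifers, ranging from 10079 to 13027 with a median of 11769, and 6924 ± 2379 CPM (n = 6) in LPLE heifers, ranging from 3661 to 10793 with a median of 7155. Only 1 LPLE heifer, number 22, reached the range of the LPHE heifers. ACACA was read at 2273 ± 718 CPM in LPHE heifers (1394 to 3482, median 2302) and at 924.4 ± 291 CPM in LPLE heifers (473 to 1194, median 1006). ELOVL6 was read at 1873 ± 759 CPM in LPHE heifers (1019 to 3132, median 1768) and at 622 ± 279 CPM in LPLE heifers (255 to 1002, median 677). For ACACA and ELOVL6 the lowest LPHE heifer lay above the highest LPLE heifer. For ELOVL6 these were 1019 and 1002 CPM, and with library size in place of TMM the groups overlapped. The share of all genes that separate like this was not counted, here or in the comparisons below. Within LPHE the members did not rank the heifers alike, since heifer 24 had the lowest FASN value and the highest ACACA and ELOVL6 values.

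**Figure D1:**
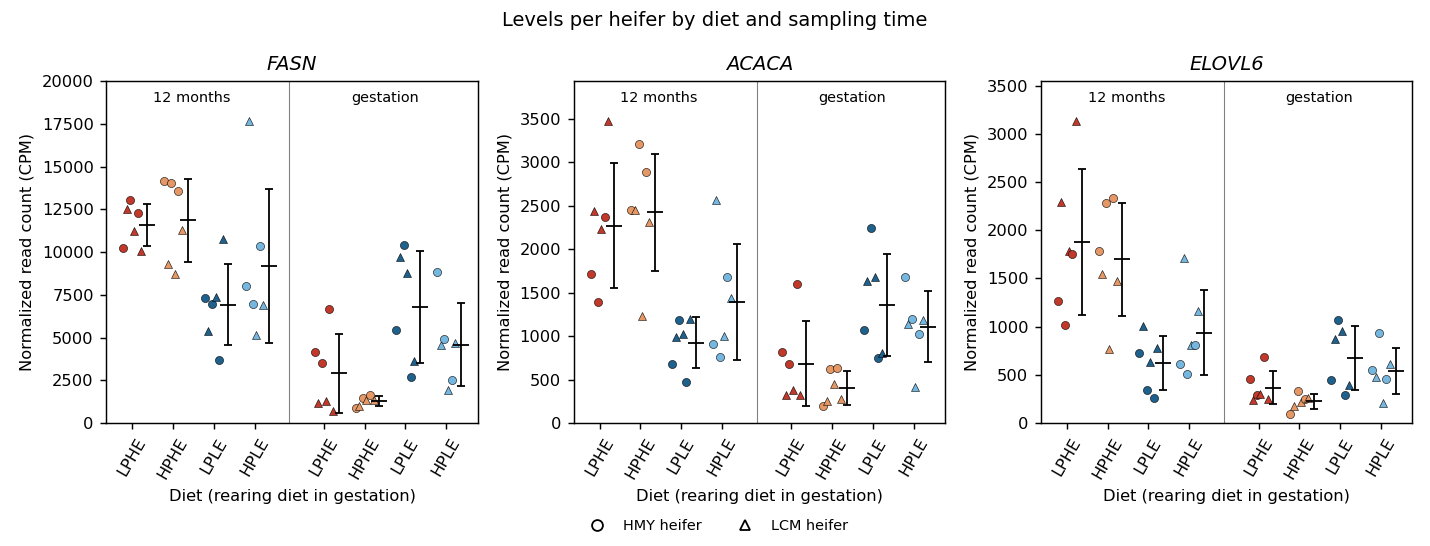
Normalized read count (CPM, linear axis from 0) of FASN, ACACA and ELOVL6 in each heifer by diet at 12 months and by rearing diet in month 7 of gestation, with circles for HMY and triangles for LCM heifers and the mean with SD (n = 6) beside each group. At 12 months LPHE and HPHE heifers had the highest means of all 3 genes, for FASN of 11568 and 11853 CPM, and in gestation they had the lowest, for FASN 2912 and 1272 CPM.

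The differences between LPHE and LPLE at 12 months were tested in a negative binomial model with diet and genetic group over the 24 heifers, with the likelihood ratio test of edgeR and Benjamini-Hochberg adjustment over all genes tested (FDR). FASN had a log2 fold change of 0.73 (SE 0.24) with an FDR of 0.0622, ACACA of 1.28 (SE 0.27) with an FDR of 0.00151, and ELOVL6 of 1.58 (SE 0.30) with an FDR of 2.50e-04. All 3 members were therefore DEG (differentially expressed genes) at the FDR of 0.1 used for pairwise contrasts, where 4.45% of the 13339 genes tested were called higher. The study had already reported all 3 as higher in LPHE than in LPLE heifers from these same libraries. The members' tests that use the 12-month libraries, here and below, are therefore not independent evidence. In an exact permutation test of log2 CPM, 6 heifers against 6, the p was 0.00216 for ACACA and for ELOVL6, the smallest this design can give, and 0.00649 for FASN, with adjusted values over the 24 tests of this family of 0.0173, 0.0173 and 0.0390. The call of FASN was lost without heifer 5, 8, 16, 18 or 20 (log2 fold change 0.58 to 0.73, FDR 0.1001 to 0.213) and without the libraries with skeletal muscle reads (0.68, FDR 0.123), and in the quasi-likelihood test, without the filter on low counts and with all 48 samples in the fit (FDR 0.104, 0.122 and 0.205), whereas ACACA and ELOVL6 stayed under 0.1 without any 1 heifer, at FDR of up to 0.0110 and 0.00340.

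In the same samples, marker genes of other cells were compared between LPHE and LPLE heifers. Their identifiers come from the study's tables, which mostly list genes that it selected between LPHE and LPLE on these samples. The markers' values in contrasts that use the 12-month libraries are therefore not independent evidence. The sum of the stromal genes COL1A1, COL3A1 and DCN, 3 of 5 stromal markers listed, ranged from 13524 to 41547 CPM (median 26887) in LPHE heifers and from 26581 to 67883 CPM (median 55075) in LPLE heifers at 12 months. All 3 were called lower in LPHE, with log2 fold changes of -1.09, -0.91 and -0.63, as were 351 of the 13339 genes tested. CIDEC ranged from 1653 to 2798 CPM (median 2035) in LPHE and from 810 to 2325 CPM (median 1253) in LPLE heifers, with a log2 fold change of 0.58 that did not pass the test (FDR 0.132). Skeletal muscle genes summed to 0.687 to 1.27 CPM in LPHE and to 0.987 to 34.6 CPM in LPLE heifers, and all 3 were called lower in LPHE. The smooth muscle genes MYH11, ACTG2 and CNN1, 3 of 3 listed, summed to 44.9 to 338 CPM (median 109) in LPHE and to 82.6 to 2195 CPM (median 545) in LPLE heifers, and 1 of the 3, ACTG2, was called lower (log2 fold change -2.71, FDR 0.0620), with MYH11 at -1.71 (FDR 0.206) and CNN1 at -1.90 (FDR 0.189). DSP, the 1 epithelial marker of 4 with an identifier, had 1.62 (FDR 0.184). The part of these genes' cells in the difference of FASN, ACACA and ELOVL6 was not tested.

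At high protein the same contrast pointed the same way with smaller differences. HPHE heifers had FASN at 11853 ± 2433 CPM (8726 to 14135, median 12439) and HPLE heifers at 9177 ± 4500 CPM (5160 to 17677, median 7498). ACACA was read at 2427 ± 675 CPM in HPHE (1235 to 3218, median 2451) and at 1394 ± 669 CPM in HPLE (764 to 2565, median 1219). ELOVL6 was read at 1696 ± 583 CPM in HPHE (763 to 2334, median 1667) and at 937 ± 442 CPM in HPLE (507 to 1715, median 812). The groups overlapped for all 3 genes. The HPLE heifer 7 was the highest of its group for each gene, and the HPHE heifer 15 was the lowest of its group for each.

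The fold changes of HPHE over HPLE were 1.29 for FASN (95% interval 0.924 to 1.80, FDR 0.770), 1.79 for ACACA (1.24 to 2.59, FDR 0.333) and 1.98 for ELOVL6 (1.32 to 2.97, FDR 0.300). None of the 3 was called by edgeR's likelihood ratio test, in a contrast where 0.12% of all genes tested were called, and neither DESeq2 nor the quasi-likelihood test called any of them. The quasi-likelihood test called 0 of all 13339 genes tested, and DESeq2 called 12 higher and 13 lower of 13306. ACACA and ELOVL6 had an unadjusted p under 0.05 in the likelihood ratio test, as did 965 of the 13339 genes tested. The exact permutation p was 0.130, 0.0346 and 0.0390 (adjusted 0.240, 0.0987 and 0.0987) for FASN, ACACA and ELOVL6. Without heifer 7 the log2 fold change of ACACA was 1.05 (FDR 0.0440) and that of ELOVL6 1.16 (FDR 0.0630), and without heifer 15 they were 1.01 (FDR 0.0533) and 1.20 (FDR 0.0297), so either heifer decided both calls. The difference between the energy effect at low and at high protein was 0.36 for FASN, 0.43 for ACACA and 0.59 for ELOVL6 on the log2 scale, each with an FDR of 0.9999, and 0.105% of all genes were called in that test. The members' energy effect was thus called at low protein and not at high protein, but a difference between the protein levels was not detectable.

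Over both protein levels, HE heifers at 12 months exceeded LE heifers 1.46-fold for FASN (FDR 0.0312), 2.09-fold for ACACA (FDR 2.29e-05) and 2.43-fold for ELOVL6 (FDR 2.67e-06). All 3 were called at the FDR of 0.05 used for comparisons over all heifers, where 4.69% of the genes tested were called higher. Of the 12 LE heifers, 9 lay below the lowest HE heifer for FASN, 9 for ACACA and 6 for ELOVL6. Without heifer 1, 2, 5, 9, 11, 13, 18, 19 or 21 FASN was no longer called (log2 fold change 0.46 to 0.53, FDR 0.0524 to 0.0795), and without the libraries with skeletal muscle reads its log2 fold change was 0.46 (FDR 0.151). The call of FASN was also lost with the quasi-likelihood test (FDR 0.0627), without the filter on low counts (FDR 0.0697) and with all 48 samples in the fit (FDR 0.158). COL1A1, COL3A1 and DCN were called lower in HE than in LE heifers at 12 months (log2 fold changes of -0.88, -0.60 and -0.57), as were 335 of the 13339 genes tested. CIDEC was higher (0.54, FDR 0.0203). Most marker identifiers stem from genes selected on these libraries, so these values are not independent evidence.

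In month 7 of gestation the order of the energy groups was turned around, and the heifers reared on high energy had the lower levels. FASN was read at 2912 ± 2319 CPM (683 to 6700, median 2390) in LPHE heifers and at 6775 ± 3281 CPM (2691 to 10389, median 7115) in LPLE heifers. It was read at 1272 ± 291 CPM (855 to 1615, median 1358) in HPHE heifers and at 4582 ± 2436 CPM (1931 to 8859, median 4637) in HPLE heifers. Every HPHE heifer lay below every HPLE heifer, whereas at low protein 3 LPHE heifers, numbers 3, 12 and 20, lay inside the range of LPLE.

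ACACA was read in gestation at 685 ± 494 CPM (319 to 1602, median 527) in LPHE against 1363 ± 587 CPM (743 to 2240, median 1351) in LPLE heifers. At high protein it was read at 403 ± 191 CPM (198 to 632, median 360) in HPHE against 1107 ± 409 CPM (416 to 1686, median 1162) in HPLE heifers. ELOVL6 was read at 368 ± 174 CPM (233 to 685, median 294) in LPHE, 672 ± 332 CPM (287 to 1071, median 661) in LPLE, 223 ± 80.6 CPM (94.1 to 330, median 237) in HPHE and 539 ± 236 CPM (209 to 930, median 512) in HPLE heifers. For both genes the groups overlapped at either protein level, and the lowest mean of the 8 groups was that of HPHE in gestation, as for FASN.

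At low protein the log2 fold changes of LPHE against LPLE in gestation were -1.47 for FASN (SE 0.39, FDR 0.0606), -1.18 for ACACA (SE 0.33, FDR 0.0771) and -0.94 for ELOVL6 (SE 0.33, FDR 0.227). At high protein those of HPHE against HPLE were -1.81 for FASN (SE 0.39, FDR 0.00416), -1.48 for ACACA (SE 0.33, FDR 0.00664) and -1.25 for ELOVL6 (SE 0.33, FDR 0.0338). So 2 of 3 members were called lower at low protein, where 0.739% of the genes tested were called lower, and 3 of 3 at high protein, where 0.783% were. With the quasi-likelihood test of edgeR none of the 3 was called in either contrast, at FDR of 0.174 to 0.225 for the 5 calls above. That test called 0 of all 13403 genes tested in either contrast. The exact permutation test gave p of 0.0411, 0.0346 and 0.0736 for FASN, ACACA and ELOVL6 at low protein (adjusted 0.0987, 0.0987 and 0.152) and of 0.00216, 0.00866 and 0.0108 at high protein (adjusted 0.0173, 0.0416 and 0.0433). At low protein the calls of FASN and ACACA were also lost when heifer 5, 8, 10, 12, 14, 16 or 24 was left out (FDR of 0.121 to 0.276 and 0.177 to 0.288), whereas ELOVL6 was called without heifer 18 (log2 fold change -1.13, FDR 0.0349) or 20 (-1.16, FDR 0.0631). At high protein the call of ELOVL6 was lost without heifer 2, 7, 9 or 21 (log2 fold change -1.26 to -1.08, FDR 0.107 to 0.168).

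Over both protein levels, heifers reared on HE had 0.321 times the FASN level of those reared on LE in gestation (95% interval 0.221 to 0.467, FDR 6.92e-06), 0.398 times the ACACA level (0.289 to 0.548, FDR 1.72e-05) and 0.468 times the ELOVL6 level (0.341 to 0.642, FDR 5.47e-04). All 3 were called lower, as were 2.66% of the genes tested, and these calls held in each alternative fit and without any 1 heifer, with the highest FDR at 0.0198, for ELOVL6. Of the 12 HE heifers, 9 lay below the lowest LE heifer for FASN, 6 for ACACA and 2 for ELOVL6. In gestation neither CIDEC (log2 fold change -0.15, FDR 0.651) nor COL1A1, COL3A1 or DCN (0.15, 0.12 and 0.20, FDR of 0.584 to 0.869) was called between HE and LE heifers.

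Dietary protein and genetic group were compared in the same models. High against low protein gave log2 fold changes of 0.22 for FASN, 0.37 for ACACA and 0.29 for ELOVL6 at 12 months (FDR of 0.9998 for each) and of -0.83 (FDR 0.532), -0.52 (FDR 0.9998) and -0.53 (FDR 0.9998) in gestation. No member was called by edgeR's likelihood ratio test, by the quasi-likelihood test or by DESeq2. The likelihood ratio test called 0.0225% of all genes at 12 months and 0.0746% in gestation, and the quasi-likelihood test 0 genes at either time. DESeq2 called 2 of 13306 genes lower at 12 months and, in gestation, 2 higher and 1 lower of 13392. At an unadjusted p under 0.05 the likelihood ratio test had 0 of 3 members at 12 months and 3 of 3 in gestation. Of all genes tested it had 277 of 13339 and 510 of 13403. In gestation DESeq2 also had 3 of 3 members, and the quasi-likelihood test 1 of 3. The 95% intervals of the gestation folds of HP over LP were 0.387 to 0.819 for FASN, 0.507 to 0.962 for ACACA and 0.506 to 0.951 for ELOVL6. Between HMY and LCM heifers the log2 differences were -0.01, -0.28 and -0.49 at 12 months (FDR 0.988, 0.666 and 0.463) and 0.62, 0.66 and 0.30 in gestation (FDR 0.695, 0.462 and 0.927) for FASN, ACACA and ELOVL6. None of these was called by any of these tests, and the likelihood ratio test called 0.0075% and 0.0522% of all genes. The quasi-likelihood test called 0 genes between HMY and LCM at either time. At an unadjusted p under 0.05 the likelihood ratio test had 1 of 3 members at 12 months and 2 of 3 in gestation. Of all genes tested it had 1228 of 13339 and 889 of 13403. The quasi-likelihood test and DESeq2 each had 1 of 3 members in gestation. The difference between the energy effects at low and high protein in gestation was 0.35, 0.29 and 0.31, each with an FDR of 0.99998, where 0.00746% of genes were called, and neither time had a member at an unadjusted p under 0.05.

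Since each heifer was sampled at both times, the change was also followed within heifers. All 12 HE heifers had lower FASN, ACACA and ELOVL6 levels in gestation than at 12 months. In HPHE heifers FASN changed by -4.05 to -2.69 on the log2 scale (mean -3.23 ± 0.45, SD, n = 6), and in LPHE heifers by -3.88 to -0.87 (mean -2.42 ± 1.23). The mean change of ACACA was -2.67 ± 0.80 in HPHE and -1.94 ± 1.19 in LPHE heifers, and that of ELOVL6 -2.93 ± 0.82 and -2.36 ± 0.97. The exact sign-flip permutation test gave p = 0.0312 for each of these, the smallest possible with 6 heifers (adjusted 0.05), and 4.88e-04 over the 12 HE heifers, the smallest possible with 12 (adjusted 0.00146 over the 24 tests of this family).

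**Figure D2:**
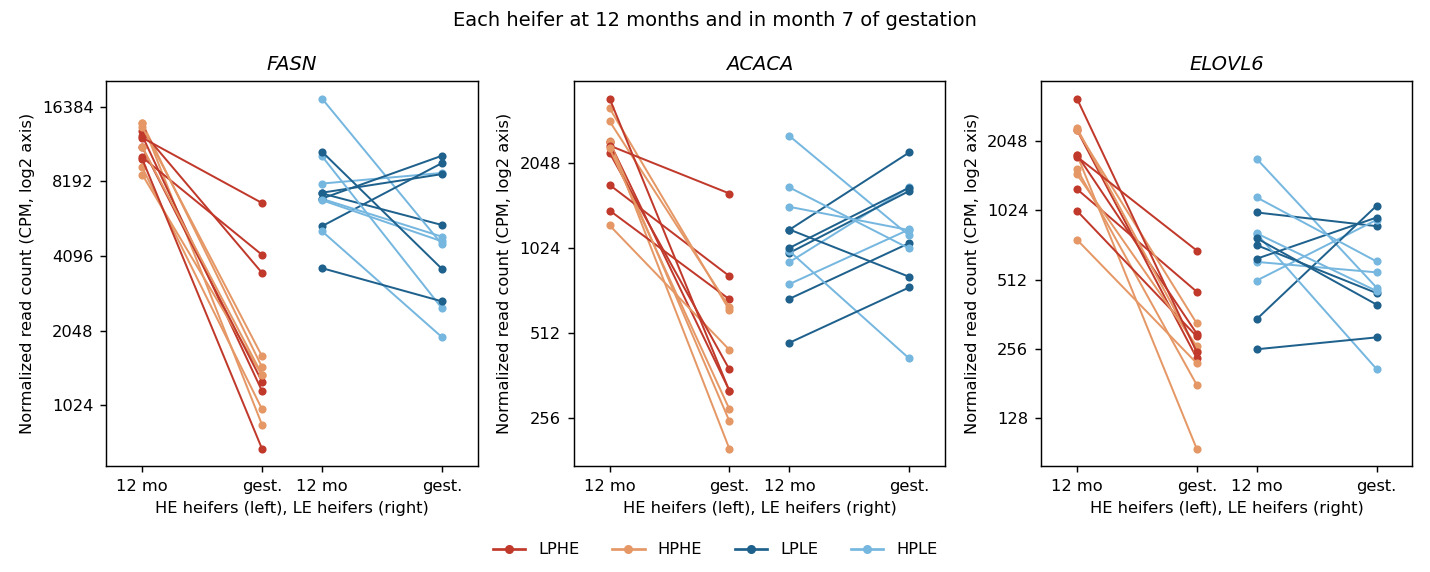
Normalized read count (CPM, log2 axis) of FASN, ACACA and ELOVL6 at 12 months and in month 7 of gestation, 1 line per heifer, with HE heifers on the left and LE heifers on the right of each panel. All 12 lines of HE heifers go down in each panel, whereas 8 of 12 LE lines go down for FASN, 5 for ACACA and 8 for ELOVL6.

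In LE heifers the directions were mixed. FASN was lower in gestation in 3 of 6 LPLE and 5 of 6 HPLE heifers, with mean changes of -0.13 ± 0.88 and -1.05 ± 0.88 on the log2 scale. ACACA was lower in 1 of 6 LPLE heifers (mean change 0.52 ± 0.53) and in 4 of 6 HPLE heifers (-0.32 ± 0.91), and ELOVL6 in 3 of 6 (0.09 ± 0.94) and 5 of 6 (-0.81 ± 1.07). Over the 12 LE heifers the exact sign-flip test gave p = 0.0615 for FASN, 0.671 for ACACA and 0.263 for ELOVL6.

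In the edgeR model of all 48 samples, gestation against 12 months gave log2 fold changes in LPHE heifers of -2.08 (FDR 8.66e-07), -1.80 (FDR 1.43e-05) and -2.32 (FDR 2.10e-08) for FASN, ACACA and ELOVL6. In HPHE heifers they were -3.20 (FDR 7.60e-14), -2.59 (FDR 1.44e-10) and -2.94 (FDR 1.76e-12). All 3 members fell in both groups, where 16% and 15.9% of the 13718 genes tested were called lower. FASN in HPHE heifers in gestation was at 0.109 times its level at 12 months (95% interval 0.0677 to 0.175).

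In LPLE heifers the log2 fold changes were -0.04, 0.55 and 0.12 (FDR 0.999, 0.737 and 0.989), and in HPLE heifers -1.04, -0.37 and -0.77 (FDR 0.117, 0.816 and 0.351). No member was called in either LE group by edgeR's likelihood ratio test, its quasi-likelihood test or DESeq2. The likelihood ratio test called 0.598% of all genes in LPLE and 2.62% in HPLE heifers. The quasi-likelihood test called 27 genes higher and 15 lower in LPLE heifers, and 173 and 116 in HPLE heifers. At an unadjusted p under 0.05 there were 0 of 3 members in LPLE and 2 of 3, FASN and ELOVL6, in HPLE. Of the 13718 genes tested, 1174 and 1510 were under 0.05 in the likelihood ratio test. With the heifer as a block FASN fell in HPLE heifers (-1.05, FDR 0.0405), and it was also called when heifer 1, 18, 20 or 24 was left out (-1.34 to -1.03, FDR 0.0390 to 0.0863). The 95% intervals of the LPLE fold changes were 0.606 to 1.57 for FASN, 0.920 to 2.32 for ACACA and 0.681 to 1.74 for ELOVL6. Averaged over the diets the members fell by 1.59, 1.05 and 1.48 on the log2 scale (FDR 1.81e-16, 3.28e-08 and 9.10e-15), where 19.4% of all genes were called lower.

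The test of the difference itself, the HE-LE contrast in gestation minus that at 12 months, gave -2.10 for FASN (SE 0.35, FDR 5.59e-07), -2.28 for ACACA (SE 0.34, FDR 2.36e-08) and -2.30 for ELOVL6 (SE 0.34, FDR 2.59e-08). All 3 were called, where 12% of the genes tested were called in this direction. A permutation of the energy groups over the 24 heifers' own changes gave differences of -2.23, -2.40 and -2.29 between HE and LE heifers, with p of 6.00e-05, 4.00e-05 and 4.00e-05 from 100000 resamples (adjusted 3.60e-04, 3.20e-04 and 3.20e-04). In the same contrast COL1A1, COL3A1 and DCN had log2 values of 0.996, 0.70 and 0.75, all 3 called higher, as were 1267 of the 13718 genes tested. CIDEC had -0.70 (FDR 0.0116). These markers mostly got their identifiers through a selection on the 12-month libraries, so their values here are not independent evidence. The part of the cells that these genes mark in the members' difference was not tested.

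Whether the members changed unequally within samples was tested on their ratios, which need no transcript length. The log2 ratio of ELOVL6 to FASN was -2.72 ± 0.66 in LPHE and -3.55 ± 0.64 in LPLE heifers at 12 months, a difference of 0.83 (exact permutation p = 0.0541, adjusted 0.234 over 12 tests). The ratio of ACACA to FASN differed by 0.50 in the same contrast (exact p = 0.0887, adjusted 0.234). At high protein, at 12 months, these differences were 0.43 and 0.41, and in gestation between 0.23 and 0.67 at either protein level. None of the 12 ratio tests passed 0.05 after adjustment. All 12 differences were positive, but the ratios share genes and both sampling times share heifers, so these signs are not independent. The ratio of ELOVL6 to ACACA differed by 0.02 to 0.33.

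Beside the 3 members, 13 genes from 4 lists of the pathway had a known identifier, and they had the same pattern of signs. The lists were de novo synthesis (identifiers for 7 of 12 genes), elongation (2 of 13), NADPH supply (3 of 3) and lipogenic regulators (4 of 20), members included. Because most identifiers come from genes that the study selected between LPHE and LPLE on these samples, the counts at 12 months, and those of each contrast that uses the 12-month libraries (gestation against 12 months and the difference of the energy effect between times), are not independent evidence. At 12 months 12 of the 13 were called higher in LPHE than in LPLE heifers (median log2 fold change 1.05, against -0.02 over all genes tested), as were 4.45% of all genes tested. The 1 exception was MLXIPL, the carbohydrate-responsive transcription factor, at 0.57 (FDR 0.106). In HPHE against HPLE none of the 13 was called by edgeR's likelihood ratio test, its quasi-likelihood test or DESeq2, with 6 at an unadjusted p under 0.05, and the median was 0.58. Of all genes tested, the likelihood ratio test called 0.12% and had 965 of 13339 at an unadjusted p under 0.05. The quasi-likelihood test called 0 of the 13339.

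In gestation 4 of the 13 genes were called lower in LPHE than in LPLE heifers, 7 in HPHE than in HPLE and 9 in HE than in LE heifers, where 0.739%, 0.783% and 2.66% of all genes tested were called lower, the last with a median log2 fold change of -0.71 against 0.01 over all genes tested. With the quasi-likelihood test the pairwise contrasts called none of them, with 9 at low and 12 at high protein at an unadjusted p under 0.05, as were 1790 and 1221 of the 13403 genes tested. That test called 0 of all 13403 genes in either pairwise contrast. Its HE-LE contrast called 9 of the 13 list genes lower, and 438 of all genes tested. For the difference of the energy effect between sampling times all 13 were called lower, as were 12% of all genes tested, with a median of -2.05. From 12 months to gestation all 13 fell in LPHE and in HPHE heifers (medians -1.74 and -1.98), where 16% and 15.9% of all genes tested were called lower. In HPLE heifers 1 was called lower, as were 144 of the 13718 genes tested. None was called in LPLE heifers, where 1 had an unadjusted p under 0.05, as did 1174 of all genes tested.

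Among the genes that supply acetyl-CoA, ACSS2, which activates acetate in the cytosol, had an HE-LE log2 fold change of 0.95 (FDR 9.48e-06) at 12 months and of -1.47 (FDR 1.78e-05) in gestation. SLC25A1, the mitochondrial citrate carrier, had 0.75 and -1.54, and ACLY, which splits citrate to acetyl-CoA, 1.21 and -1.26. Each was called at both times. CBR4 and MECR, of mitochondrial fatty acid synthesis, had smaller values of 0.44 and 0.59 at 12 months and of -0.40 and -0.31 in gestation, the last not called (FDR 0.0682). HSD17B12, the ketoreductase of elongation, had 0.63 and -0.93, both called.

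Of the genes that supply NADPH, PGD of the pentose phosphate pathway had 0.88 at 12 months and -0.59 in gestation, called each time. ME1, malic enzyme, had 1.46 (FDR 1.44e-06) at 12 months and -0.70 (FDR 0.0829) in gestation. IDH1, the cytosolic isocitrate dehydrogenase, had 0.54 (FDR 0.0234) and -0.47 (FDR 0.0625). The likelihood ratio test of edgeR thus called both at 12 months and neither in gestation, and their energy-by-time difference of -2.15 and -1.01 was called. In gestation DESeq2 called 11 of the 13 list genes lower, as were 764 of the 13392 genes tested. Which of the 13 these were is not given here. Among the regulators, THRSP and MID1IP1, which bind each other and promote lipogenesis, had 1.05 and 0.90 at 12 months and -1.22 and -1.43 in gestation, called each time. PRKAA2, a catalytic subunit of the AMP-activated kinase that inhibits the ACACA protein, also moved with the members at 12 months (1.56, FDR 3.11e-04), with -0.50 in gestation (FDR 0.493). MLXIPL had 0.41 at 12 months, not called (FDR 0.0737), and -0.71 in gestation, called (FDR 0.00157).

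**Figure D3:**
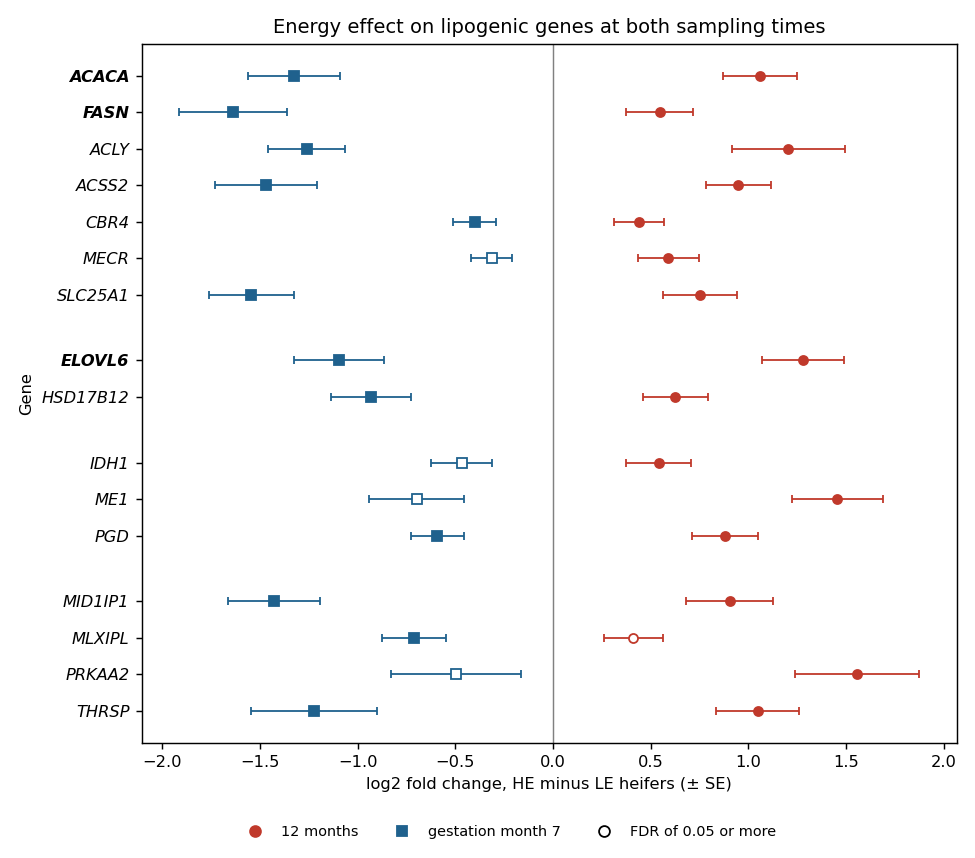
Log2 fold change of HE against LE heifers with SE (x axis) for the 3 members in bold and 13 other lipogenic genes (y axis, grouped from top to bottom as de novo synthesis, elongation, NADPH supply and regulators), at 12 months (circles) and in month 7 of gestation (squares), with open symbols for an FDR of 0.05 or more. All 16 values lie right of 0 at 12 months and left of 0 in gestation. FASN moved from 0.55 to -1.64.

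The 3 genes varied together between heifers of the same diet. Genetic group was not taken off here, so differences between HMY and LCM heifers within a diet are part of these relations. After the diet means were taken off, log2 levels of FASN and ACACA at 12 months had Pearson's r = 0.658 (permutation p = 4.00e-04, adjusted 6.55e-04 over 18 relations) and Spearman's rho = 0.564 (p = 0.00518, adjusted 0.00848) over 24 heifers. ACACA and ELOVL6 had r = 0.801 (p = 4.00e-05, adjusted 8.00e-05) and rho = 0.777 (p = 4.00e-05), and FASN and ELOVL6 r = 0.510 (p = 0.00988, adjusted 0.0148) and rho = 0.434 (p = 0.0346, adjusted 0.0444). Without the 2 heifers farthest from the median of the first gene of each pair r was 0.451, 0.710 and 0.250. Leaving out the outermost heifers narrows the range, which can itself lower r, so these values cannot tell whether a relation rests on those heifers.

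In gestation the same relations were r = 0.895 (rho = 0.902) for FASN with ACACA, 0.858 (rho = 0.848) for ACACA with ELOVL6 and 0.778 (rho = 0.790) for FASN with ELOVL6, each with a permutation p of 2.00e-05, the smallest these resamples can give. Without 2 heifers they were 0.874, 0.806 and 0.772. A heifer's level at 12 months had no detectable relation to her level in gestation once the diet means were taken off, with r of 0.174 (rho = 0.123) for FASN, 0.063 (rho = 0.093) for ACACA and -0.029 (rho = -0.043) for ELOVL6 and permutation p of 0.418 to 0.893 for r.

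**Figure D4:**
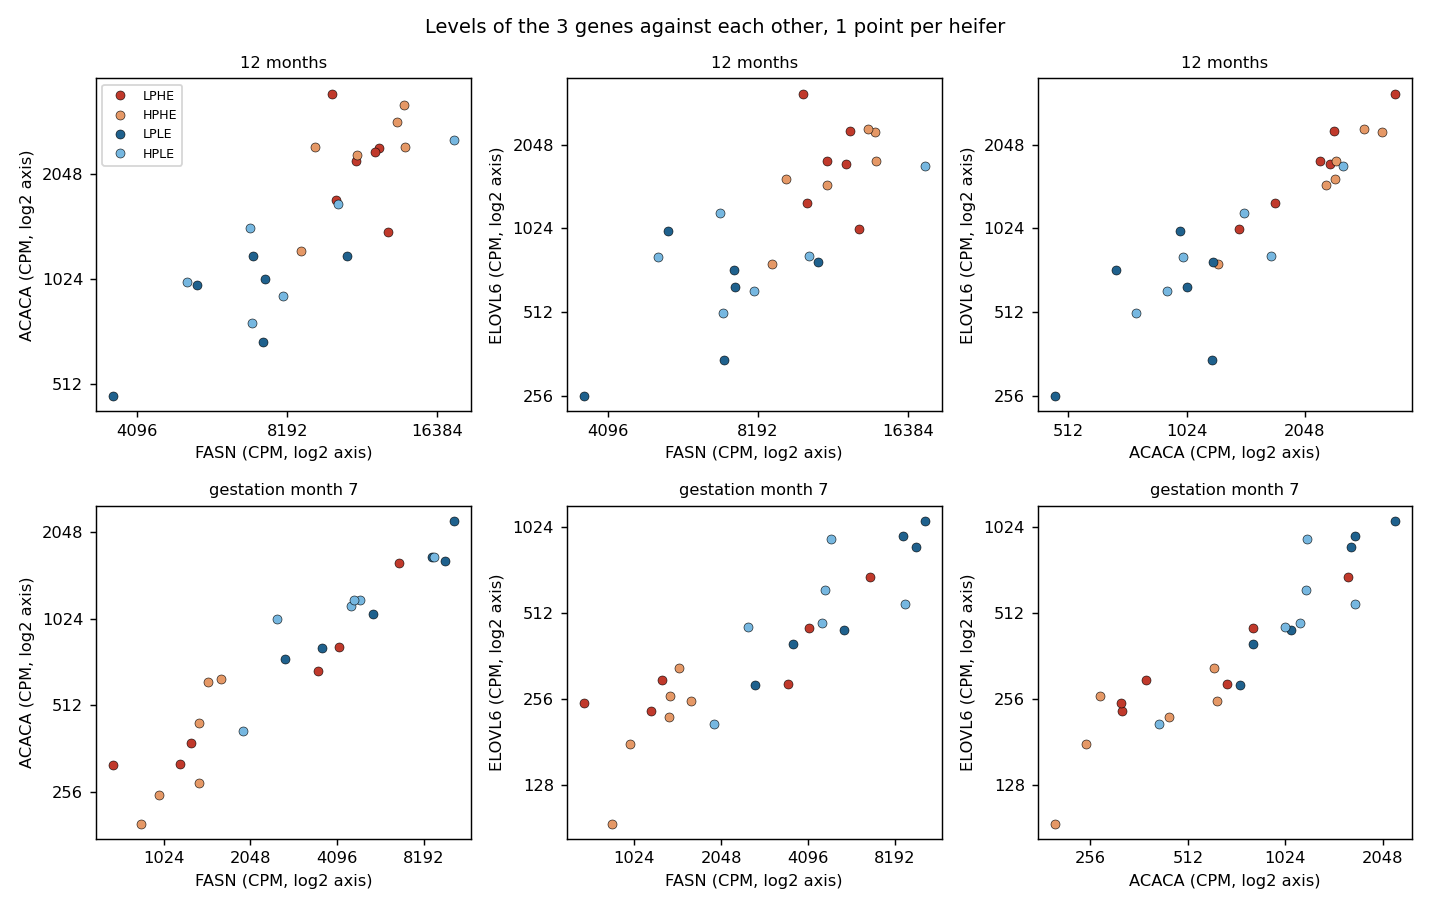
Normalized read counts of 2 of the 3 genes against each other (CPM, log2 axes), 1 point per heifer coloured by diet, at 12 months (top) and in month 7 of gestation (bottom). The points rise together in each panel, and within diets r was 0.510 to 0.801 at 12 months and 0.778 to 0.895 in gestation.

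The genes most like each member were sought over all 13718 expressed genes by Pearson's r of log2 levels after the means of the 8 groups of diet and time were taken off, over 48 samples that share heifers and libraries. Genetic group was not taken off here either. Closest to FASN were ACSS2 (r = 0.898), SLC25A1 (0.879), THRSP (0.875), SLC25A4 (0.844), the mitochondrial ADP/ATP carrier, and TKT (0.836), transketolase. Closest to ACACA were ACSS2 (0.851), DGAT2 (0.838), which makes triacylglycerol, ENSBTAG00000047957 (0.838), SCD (0.836), the delta-9 desaturase, and PPIP5K1 (0.829). Closest to ELOVL6 were NDUFS1 (0.857), a subunit of respiratory complex I, ETFDH (0.842), PRKAR2A (0.839), GART (0.836) and ENSBTAG00000003882 (0.832). ACACA took rank 9 among the genes nearest to FASN and rank 6 among those nearest to ELOVL6, while ELOVL6 took rank 86 among those nearest to FASN.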

How the data were processed

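Libraries (TruSeq v2, not stranded, paired end) were trimmed with cutadapt 1.3, aligned to UMD3.1 with TopHat 2.0.12 and counted with HTSeq-count by the authors, and the deposited files hold whole-number counts of reads on each gene, not normalized. The 5 summary rows of each table (38.8 to 61.0% of all counts) are no genes and were left out. Genes that reached 2 CPM in 3 or more samples of a fit were kept and scaled with TMM. A generalized linear model with diet and genetic group (24 samples per time, FDR 0.1 for pairwise and difference contrasts, 0.05 over all heifers), or with diet by time and genetic group (48 samples), was fitted with glmFit of edgeR 4.0.16 with tagwise dispersions and tested with the likelihood ratio test. The SE is that of the fitted model. DESeq2 1.42.0 and other settings were alternatives, and tests were tested on simulated data. Exact and permutation tests are two-sided, on log2(CPM + 0.5). The heifer number in the labels pairs the samples of both times. The correlation of deviations from group means over genes had a median of 0.304 within heifers, against -0.018 between different heifers. Within heifers it was above 0.1 in 20 of 24 and at lowest -0.056. In 11 of 24 heifers the own sample was the best match. No 2 samples of a group agreed within sampling noise (lowest chi-square per degree of freedom 40.2 over 120 pairs). Sequencing lanes are not in the labels. Named genes are the members, genes of the lists with an identifier in the study's tables, and the 5 genes nearest to each member. The members and lists were chosen with earlier results of these data known. Sequences and coordinates were not used here, and 1 lipogenic gene is not reported here.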

Additional observations from a re-analysis of the deposited data

Results flagged for a closer look

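For each of the 3 genes the energy effect differed between the sampling times in the test of the difference itself, HE minus LE in gestation less HE minus LE at 12 months, with log2 values of -2.10 for FASN, -2.28 for ACACA and -2.30 for ELOVL6. None of the 24 groups of 6 heifers (3 genes, 4 diets and 2 sampling times) held a heifer past Dixon's 95% critical value, where chance flags about 5% of groups. The nearest was LPHE heifer 20 in gestation for ACACA, at 1602 CPM with the next heifer at 815 CPM, a gap of 0.613 of the group's range.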

How the results depend on the processing

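Over 540 values of the members under other settings, 522 kept their direction and side of the threshold and none changed sign. The quasi-likelihood test lost the calls of FASN in LPHE-LPLE (0.73, FDR 0.104) and HE-LE (0.55, FDR 0.0627) at 12 months, of FASN (-1.47, FDR 0.189) and ACACA (-1.18, FDR 0.197) in LPHE-LPLE in gestation, and of FASN (-1.81, FDR 0.174), ACACA (-1.48, FDR 0.186) and ELOVL6 (-1.25, FDR 0.225) in HPHE-HPLE in gestation. In these gestation contrasts that test called 0 of all 13403 genes. Without a filter on low counts FASN lost LPHE-LPLE (0.73, FDR 0.122) and HE-LE (0.55, FDR 0.0697) at 12 months and ACACA LPHE-LPLE in gestation (-1.19, FDR 0.102), and with all 48 samples in the fit the same 3 calls were lost (0.72, 0.52 and -1.04; FDR 0.205, 0.158 and 0.220). Without genetic group FASN (-1.23, FDR 0.210) and ACACA (-1.003, FDR 0.290) lost LPHE-LPLE in gestation. Without the libraries over 10 CPM of skeletal muscle genes, chosen after seeing the data, FASN lost LPHE-LPLE (0.68, FDR 0.123) and HE-LE (0.46, FDR 0.151) at 12 months. The heifer as a block added FASN in HPLE heifers between sampling times (-1.05, FDR 0.0405) and changed no other call of a member, while genes called rose from 82 to 493 in LPLE and from 360 to 736 in HPLE heifers. The cause of these changes was not tested. No call or sign of a member changed with DESeq2, library size, RLE, at least 10 counts in every sample, only the 12 samples of a contrast, or the dispersions of estimateDisp (the last chosen after seeing the data).

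Without each heifer in turn, FASN ranged from 0.58 to 0.90 in LPHE-LPLE and from 0.46 to 0.69 in HE-LE at 12 months, from -1.80 to -1.22 in LPHE-LPLE in gestation, from -1.34 to -0.72 between sampling times in HPLE and from -0.26 to 0.29 in LPLE heifers, and from -0.068 to 0.15 in HMY-LCM at 12 months. ACACA ranged from 0.72 to 1.05 in HPHE-HPLE at 12 months, from -1.51 to -1.05 in LPHE-LPLE in gestation and from -0.034 to 0.45 for energy by protein in gestation. ELOVL6 ranged from 0.83 to 1.20 in HPHE-HPLE at 12 months, from -1.16 to -0.79 in LPHE-LPLE and from -1.44 to -1.08 in HPHE-HPLE in gestation, and from -0.19 to 0.30 between sampling times in LPLE heifers. Genes called over all other settings ranged from 750 to 1615 (944 in the reported fit) in LPHE-LPLE and from 0 to 61 (16) in HPHE-HPLE at 12 months, and in gestation from 0 to 423 (141), from 0 to 173 (127) and, in HE-LE, from 339 to 1151 (501). Without each heifer in turn they ranged from 484 to 1719 in LPHE-LPLE at 12 months and from 26 to 322 in LPHE-LPLE and from 48 to 286 in HPHE-HPLE in gestation. A pseudocount of 5 changed no call or sign in the exact tests and ratios. Library size in place of TMM changed none in the exact tests and correlations, except for Spearman's rho. For FASN with ELOVL6 at 12 months within diets the adjusted permutation p was 0.0572, against 0.0444 with TMM. For FASN at 12 months with FASN in gestation, diet means not taken off, it was 0.0598, against 0.0444. With library size the LPHE and LPLE groups of ELOVL6 at 12 months overlapped (exact permutation p = 0.00433, adjusted 0.0346). Promoter motifs were planned and not run, since no promoter sequence was used here.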

Other observations

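The following comparisons were chosen after the values were seen. In gestation the LPHE heifers fell apart by genetic group for FASN and ACACA. The 3 HMY heifers of LPHE were at 3503, 4141 and 6700 CPM of FASN and the 3 LCM heifers at 683, 1169 and 1276 CPM, and for ACACA they were at 674, 815 and 1602 CPM against 319, 320 and 380 CPM. For ELOVL6 they overlapped, at 290, 453 and 685 CPM against 233, 248 and 298 CPM. In the HPHE heifers of gestation, both genetic groups overlapped for all 3 genes, with FASN at 855 to 1615 CPM in HMY and at 987 to 1362 CPM in LCM heifers. With 3 heifers against 3 no exact test can reach 0.05, and none is given.

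Within genetic groups the energy difference had the same direction at each time. In gestation FASN was 0.476 times as high in HE as in LE heifers of HMY (exact permutation test, 6 against 6, p = 0.0931, adjusted 0.102 over 12 tests) and 0.229 times as high in those of LCM (exact p = 0.00216, adjusted 0.0104), where the groups did not overlap. At 12 months the fold of HE over LE for ELOVL6 was 3.32 in HMY (exact p = 0.00216, adjusted 0.0104) and 1.74 in LCM heifers (exact p = 0.0498, adjusted 0.0693). At the same time the log2 difference for FASN was 0.89 in HMY (exact p = 0.00433, adjusted 0.0104) and 0.38 in LCM heifers (exact p = 0.214, adjusted 0.214). The difference between the genetic groups in the energy effect was not tested.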
